A study of Mus musculus with 24 samples.

Results

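The Notch pathway was followed through 10 of its genes in endothelial cells that had been sorted out of mouse aorta and skeletal muscle. They were the receptors Notch1 and Notch4, the ligands Dll1, Dll4, Jag1 and Jag2, and the target genes Hey1, Hey2, Heyl and Hes1, taken by name and found on the arrays through the accession of each probe. These 10 genes, of 18539 with a named probe, had 12 probes, and 11 of these, with at least 1 for every gene, passed the filter on dim signals. To pass, a probe had to exceed background clearly on all 3 arrays of some group, so that a gene low in 1 tissue could pass through the other.

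Notch receptors are bound by Delta-like (Dll) or Jagged (Jag) ligands on a neighbouring cell, are cut by a metalloprotease and then by gamma-secretase, and release an intracellular domain. That domain enters the nucleus, joins the DNA-binding protein RBPJ and switches on Hes and Hey genes, which encode basic helix-loop-helix repressors. In the vascular bed the pathway is known for setting arterial identity, with Dll4, Notch1, Notch4, Hey1 and Hey2 as its classical endothelial parts, and Heyl is also known in the mural cells that wrap vessels.

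RNA came from live CD105+/CD45- cells, sorted after collagenase digestion and pooled in each of 3 experiments (3 mice per pool in the study's methods, 3 to 4 in the deposited design). CD105 (endoglin) is an endothelial surface protein that macrophages can also carry, and CD45 marks leukocytes. Male mice were 8 weeks of age at the start and were C57BL/6 (wild type, WT) or galectin-3-deficient (KO), which lack Lgals3 from the germline in all cells. They had 8 weeks of a high-fat diet (HFD, 60% of calories from fat) or chow (12%), which gave 8 groups of 3 arrays from 2 tissues, 2 strains and 2 diets. No group carried any other allele or treatment. Each array is 1 pool of 1 tissue in 1 experiment, so that spread between the arrays of a group is spread between pools. By the study's methods, aortic and muscle tissue were each pooled from 3 animals. Aorta and muscle arrays of the same strain, diet and experiment may therefore come from the same mice, and cannot be taken as independent pools of animals.

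Lgals3, the targeted gene, did not fall in the arrays labelled KO: it was above the WT array of the same tissue, diet and experiment in 11 of 12 pairs, by 1.28 on the log2 scale over all arrays (SE 0.28, limma adjusted p = 0.0898). Where its probe lies relative to the deleted exons is not given in the sources used here, so the labels could not be checked with it. The study reports that DNA, RNA and protein of the knockout mice showed the loss of the gene, with PCR primers inside the deleted region. WT and KO stand below for the labels as deposited. All 14 pan-endothelial markers were well above background on all 24 arrays. Markers of other cells were present as well, and they differed between tissues: the fibroblast list summed to between 303 and 691 times an array's 75th percentile in aorta against 23.3 to 224 in muscle, and the skeletal muscle fibre list to between 1.73 and 7.99 against 22.1 to 179. Macrophage markers summed to at most 11.4, with Cd14 the one called between tissues. No marker of these lists was below background on all arrays of both tissues.

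A level below is the log2 of a probe's processed intensity over the 75th percentile of its array, so that 0 is that percentile. It ranks arrays for 1 probe, and levels of different genes are not compared, since probes differ in brightness. A gene was called where the Benjamini-Hochberg adjusted p of limma over all tested probes was under 0.05.

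Shown are the promoters of Hey2, the gene highest in aorta against muscle, and of Dll4, a ligand that lay the other way. The part of these sequences in the tissue difference was not tested. RefSeq (GRCm38.p6) gave a promoter for 7 of the 10 genes, and Hey1, Heyl and Hes1 had none in the table used. Each line is the 250 bases before the start site on the gene's strand, with the core of the RBPJ site, TGGGAA on either strand, in capitals. Hey2 lies on the minus strand at chr10:30842784-30843033, and Dll4 on the plus strand at chr2:119325534-119325783.
Hey2: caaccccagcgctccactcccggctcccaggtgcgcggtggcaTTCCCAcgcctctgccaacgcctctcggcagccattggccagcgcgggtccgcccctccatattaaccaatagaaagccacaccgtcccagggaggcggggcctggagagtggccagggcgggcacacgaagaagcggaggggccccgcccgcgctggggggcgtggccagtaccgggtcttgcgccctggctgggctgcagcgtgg
Dll4: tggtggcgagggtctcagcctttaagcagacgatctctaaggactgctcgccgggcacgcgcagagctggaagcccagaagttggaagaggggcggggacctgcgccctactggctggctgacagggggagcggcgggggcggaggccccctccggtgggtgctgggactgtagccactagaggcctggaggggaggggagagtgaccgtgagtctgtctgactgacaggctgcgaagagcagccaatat

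The Hey2 window held 1 RBPJ core, on the strand opposite to the gene and beginning at position -207 from the start site, and the Dll4 window held none. None of the windows of Notch1, Notch4, Dll1 (2 start sites), Jag1 or Jag2 held it either. Of all 32851 promoter windows of the same length, 21.6% held the core. The E-box CACGTG, bound by Hey and Hes proteins among others, was in none of the 8 windows of these genes and in 6.02% of all windows.

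Aorta and muscle differed at most of the 10 genes, and not in 1 direction. Over the 4 combinations of strain and diet, 7 genes were lower in aorta than in muscle (Jag2, Dll4, Notch4, Notch1, Hey1, Dll1 and Heyl), 1 was higher (Hey2), and Jag1 and Hes1 were not called. Of all 27344 tested probes 46.2% were called in this comparison, 30.2% lower and 16% higher in aorta, so that a call here is common. The median difference of the 10 genes was -1.08, against -0.27 over all tested probes.

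**Figure D1:**
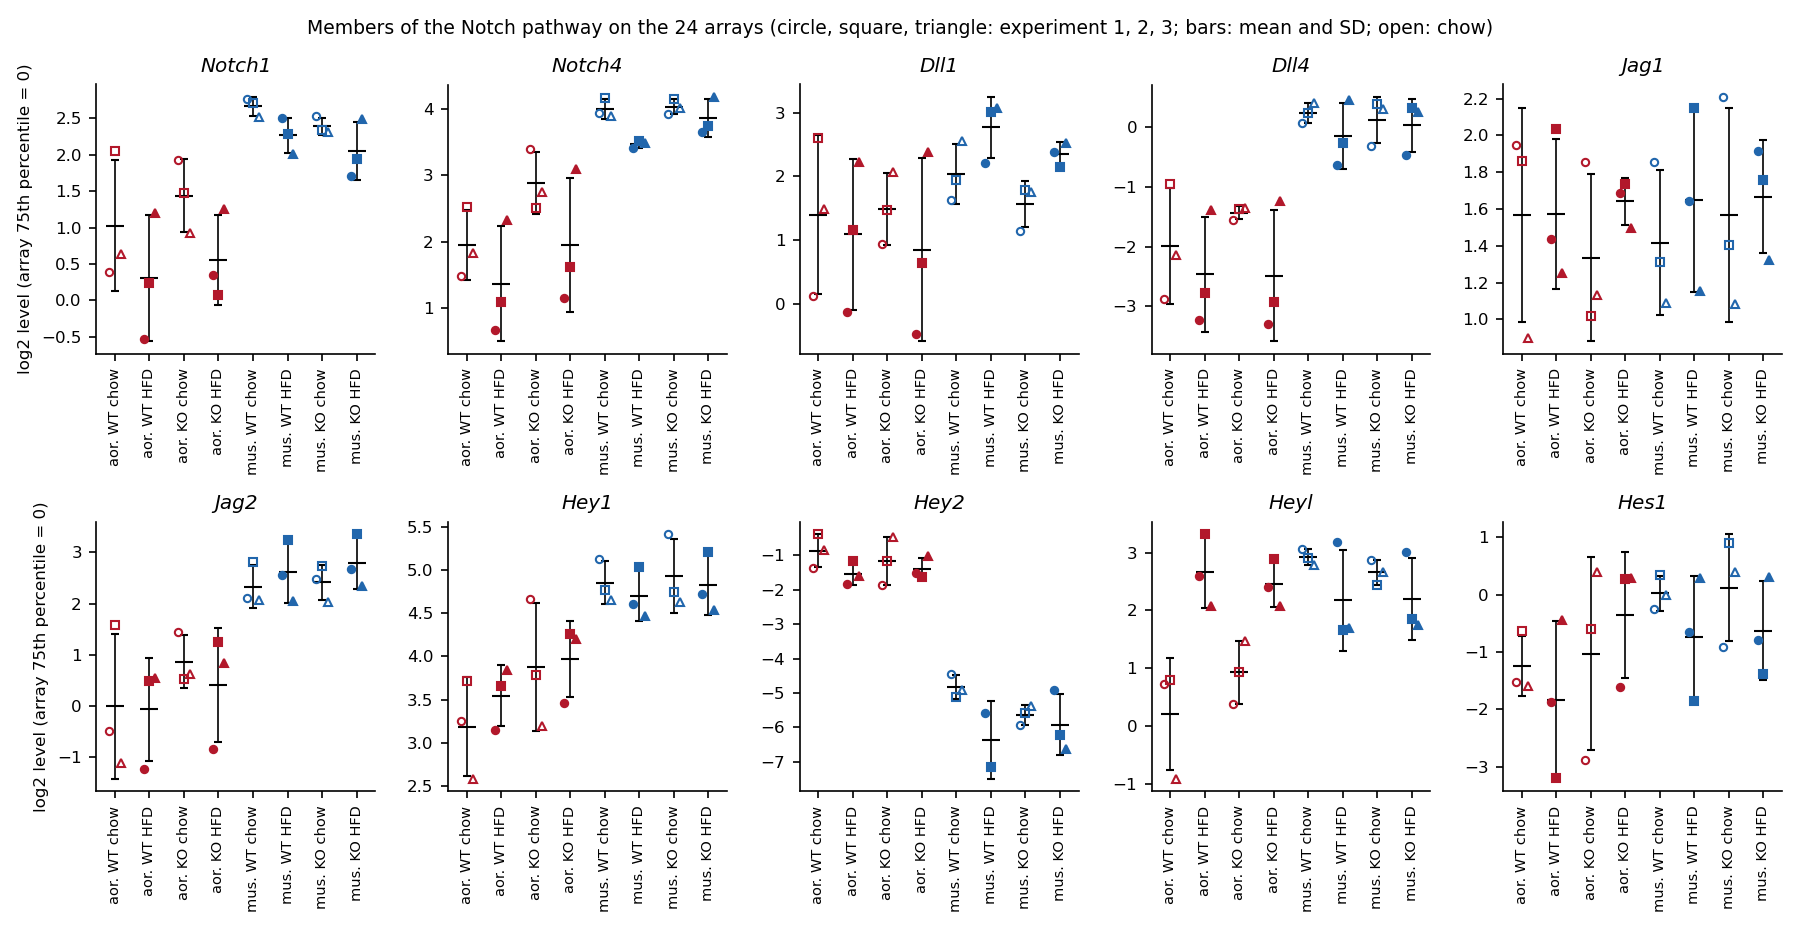
Log2 level of each of the 10 genes on the 24 arrays, relative to the 75th percentile of the array, by tissue, strain and diet. Points are experiments 1 to 3 and bars are mean ± SD (n = 3, for Hey2 in muscle WT HFD n = 2). Hey2 lies between -1.85 and -0.38 in aorta and between -7.16 and -4.46 in muscle, and Heyl changes its order between tissues with the diet.

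Hey2 encodes a repressor that is a classical marker of arterial endothelium. In aorta its level was -1.36, -0.38 and -0.84 in experiments 1, 2 and 3 for WT chow and -1.83, -1.17 and -1.58 for WT HFD. The KO values were -1.85, -1.16 and -0.47 on chow and -1.52, -1.62 and -1.02 on HFD. Each of the 12 aortic arrays was well above background.

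In muscle Hey2 read -4.46, -5.12 and -4.90 for WT chow, -5.57 and -7.16 for WT HFD (the array of experiment 3 was an outlier spot and was left out), -5.93, -5.59 and -5.38 for KO chow and -4.91, -6.22 and -6.62 for KO HFD. The tissues did not overlap. It was well above background on 3 of 3 arrays of muscle WT chow, on 2 of 3 of WT HFD with the outlier array among them, and on 1 of 3 of each KO group, so that part of the muscle values lie near background. The difference was 4.45 (SE 0.24, adjusted p = 2.96e-10), or 21.9-fold, higher in aorta in 11 of 11 pairs of pools. With the muscle arrays near background held at the lowest signal that counted as above background on the array, it was 4.25, or 19.1-fold, and with normexp background correction it was 3.45.

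The ligands lay the other way or showed no difference. Dll4, the Delta-like ligand of arterial and tip cells, had levels of -3.30 to -0.96 in aorta (median -1.85) and of -0.63 to 0.45 in muscle (median 0.24). The tissues did not overlap, and the difference was -2.16 (SE 0.27, adjusted p = 3.33e-06), or 4.46-fold lower in aorta. Jag2, a Jagged ligand, had levels of -1.23 to 1.59 in aorta (median 0.53) and of 2.04 to 3.36 in muscle (median 2.51), also without overlap, and the difference was -2.24 (SE 0.32, adjusted p = 1.63e-05). Dll1, a Delta-like ligand known in arterial growth, overlapped between tissues, with -0.46 to 2.60 in aorta and 1.15 to 3.08 in muscle. Its difference of -0.97 (SE 0.33, adjusted p = 0.023) was not called without experiment 1 (-0.60, adjusted p = 0.148) or 2 (-1.08, adjusted p = 0.115).

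Jag1, a Jagged ligand made by endothelial and mural cells, was the gene with the least difference. Its brighter probe lay between 0.90 and 2.03 in aorta and between 1.09 and 2.21 in muscle, and the difference was -0.04, with a 95% interval of -0.43 to 0.34. Its other probe was well above background on 2 of 24 arrays and was not tested.

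Both receptors were lower in aorta. Notch4, a receptor largely confined to endothelium, had levels of 0.66 to 3.40 in aorta (median 2.08) and of 3.41 to 4.18 in muscle (median 3.91). The tissues met without overlap, and the difference was -1.80 (SE 0.22, adjusted p = 2.50e-06), or 3.49-fold lower in aorta. Notch1, the receptor that reads Dll4 in arteries, had levels of -0.53 to 2.05 in aorta (median 0.78) and of 1.71 to 2.76 in muscle (median 2.41), with a difference of -1.51 (SE 0.22, adjusted p = 2.21e-05). Both were lower in the aortic array in 12 of 12 pairs of pools.

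Of the other target genes, Hey1, the close relative of Hey2, had levels of 2.58 to 4.66 in aorta and 4.47 to 5.42 in muscle. Its difference of -1.18 (SE 0.19, adjusted p = 5.07e-05) was negative in 12 of 12 pairs, so that Hey1 and Hey2 lay on opposite sides. Hes1, a repressor that many cell types use, spread widely, from -3.19 to 0.40 in aorta and from -1.86 to 0.89 in muscle. Its difference of -0.81 (SE 0.41) was not called (adjusted p = 0.111), and was called in the fit with the pool of animals as a replicate block (adjusted p = 0.0121). Heyl gave -0.92 (SE 0.25, adjusted p = 0.00519) over the 4 groups and was not called without experiment 1 (-0.63, adjusted p = 0.110).

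**Figure D2:**
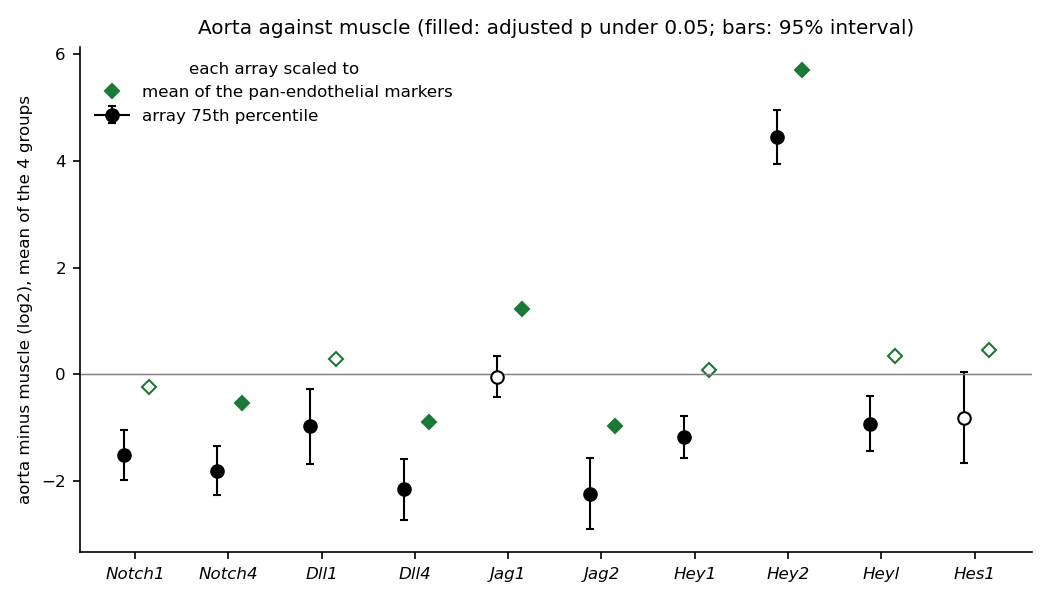
Difference between aorta and muscle (log2, mean of the 4 combinations of strain and diet) for each gene, with each array scaled to its 75th percentile (circles, with 95% interval) or to the mean of its pan-endothelial markers (diamonds). Filled symbols have an adjusted p under 0.05. Hey2 stands at 4.45 and 5.71, and Jag1 moves from -0.04 to 1.22.

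Pan-endothelial markers moved with these values. The mean log2 level of the 14 pan-endothelial markers lay between 2.00 and 4.07 on the aortic arrays and between 4.30 and 4.69 on the muscle arrays, and all 14 genes were lower in aorta (median -1.11). Lymphatic endothelial markers lay the other way, with 4 of 7 higher in aorta and 1 lower, among the higher Ccl21a (4.44), Mmrn1 (4.32) and Lyve1 (3.78), and a median summed level of 72.5 on chow and 59.04 on HFD in aorta and of 3.92 and 6.35 in muscle. In bulk samples, fewer cells of a type and less RNA per cell cannot be told apart. Centring each array on that mean moved the median of all tested probes from -0.27 to 0.99, and 74.3% of them were then called. The share of calls that were lower in aorta went from 65.4% to 2.92%. On that scale 5 of the 10 genes were called: Hey2 (5.71) and Jag1 (1.22) were higher in aorta, and Dll4 (-0.89), Jag2 (-0.97) and Notch4 (-0.54) were lower. Notch1 was at -0.24, and Hey1 (0.08), Dll1 (0.29), Heyl (0.34) and Hes1 (0.46) changed sign, without a call. The direction for Hey2, Dll4, Jag2, Notch4 and Notch1 was therefore shared by both scales, with Notch1 not called after the centring. That for Hey1, Dll1, Heyl, Hes1 and Jag1 was not shared.

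Over the 12 aortic arrays, the mean of the pan-endothelial markers had a Pearson r of 0.95 with Dll4, 0.94 with Notch1 and 0.92 with Notch4, of 0.82 with Dll1 and 0.73 with Jag2, and of -0.16 with Jag1 and -0.46 with Heyl. For Hey2, Hey1 and Hes1 it was 0.49, 0.40 and 0.30. With the pericyte markers, r was 0.73 for Jag2, 0.68 for Hes1 and 0.60 for Hey1, and between 0.01 and 0.47 for the other genes. These arrays share slides and pools, and the values describe them only. In muscle, where the marker mean had little spread, r was 0.81 for Dll4, 0.49 for Notch4 and 0.09 for Notch1. With the pericyte markers in muscle, r was 0.74 for Heyl, 0.62 for Hey2 (11 arrays) and -0.86 for Dll1. For the other genes it was between -0.38 and 0.37.

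Within single combinations of strain and diet, 7 of 10 genes were called for WT chow (15.5% of all tested probes), 6 for WT HFD (16.7%), 2 for KO chow (6.4%) and 5 for KO HFD (16.4%). Hey2 was called in each, at 3.96, 4.84, 4.47 and 4.53. Dll4 was at -2.23, -2.32, -1.55 and -2.52, and missed the threshold for KO chow (adjusted p = 0.102), the combination with the lowest share of all probes called. The 3 aortic arrays of KO chow had a pan-endothelial mean of 3.86 ± 0.12 (SD, n = 3), the highest of the 4 aortic groups, and its part in this was not tested. With the pool of animals as a replicate block, the count for KO chow was 4, beside 2720 of 27344 probes in place of 1750. These counts fell with those of all probes when an experiment was left out. Without experiment 1 the counts were 2, 1, 1 and 2 for WT chow, WT HFD, KO chow and KO HFD, without experiment 2 they were 6, 2, 1 and 1, and without experiment 3 they were 3, 5, 1 and 3. Over all probes the calls for WT chow went from 4240 to 1590, 2698 and 1256 without experiments 1, 2 and 3, and those for KO chow from 1750 to 1264, 429 and 300.

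The rest of the pathway held genes of both directions, beside 46.2% of all tested probes called and a median of -0.27. Among receptors and ligands outside the 10, 4 of 6 were tested, 2 were higher in aorta and 1 was lower. Notch2, a receptor also made by mural cells and fibroblasts, was at 1.94 (SE 0.31, adjusted p = 5.77e-05), and Notch3, the receptor of pericytes and smooth muscle, at -1.30. Dner, a non-canonical ligand best known from neurons, passed the filter through aorta, where it lay between -3.12 and 2.44 and was well above background on 12 of 12 arrays. In muscle it was so on 3 of 12, and no size is given for its difference.

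Of 17 tested genes for receptor processing and ligand trafficking, 10 were lower in aorta and 1 was higher (median -0.59). The Fringe glycosyltransferases, which tune a receptor's choice of ligand, were all among the lower ones: Mfng at -1.66, Lfng at -1.46 and Rfng at -1.16. Beside them the pan-endothelial mean was at -1.27. Neurl1a, a ubiquitin ligase of ligand uptake, was at -2.72 (SE 0.66). Rfng was well above background on 6 of 12 aortic arrays, Neurl1a on 8 and Lfng on 11. In the nuclear complex, 5 of 12 were lower and 1 was higher (median -0.30), with the DNA-binding partner Rbpj at 0.83 and the acetyltransferase Ep300 at -1.01, a count and a median near those of all probes.

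Among inhibitors and genes of turnover, 5 of 10 were lower and 2 higher (median -0.43). The Deltex ubiquitin ligases Dtx1 (4.07, SE 0.42) and Dtx4 (2.78, SE 0.44) were higher in aorta, and Nrarp, a feedback inhibitor that Notch itself induces, was lower (-2.18, SE 0.25), as was Numb, which sends the receptor to degradation (-1.25). Of 14 tested target genes outside the 10, 6 were lower and 3 were higher, with Myc at 1.99 and Efnb2, the arterial ephrin ligand, at -1.65. This list shares Dtx1 and Nrarp with the inhibitors and Notch3 with the receptors.

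Arterial genes did not move as a block. Of 23 tested, 13 were lower in aorta and 4 were higher (median -0.78). The higher ones were Gkn3 (2.54), Bmx (2.49), an arterial tyrosine kinase, Fbln5 and Mgp, the last of these also known from fibroblasts and smooth muscle. Bmx was well above background on 8 of 12 muscle arrays. The lower ones included Cxcr4, a chemokine receptor (-3.10), and Igfbp3 (-2.21). Of 12 venous genes, 7 were lower and 2 higher (median -1.10), with Nr2f1, a nuclear receptor, at 3.24 (well above background on 8 of 12 muscle arrays), and of 12 capillary genes all 12 were lower (median -1.03), with Cd300lg at -1.85 and the carbonic anhydrase Car4 at -1.29. Beside the median of -1.11 for the pan-endothelial list, these lists were tested by nothing but their counts. Fbln5 and Mgp were named after their values were seen.

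**Figure D3:**
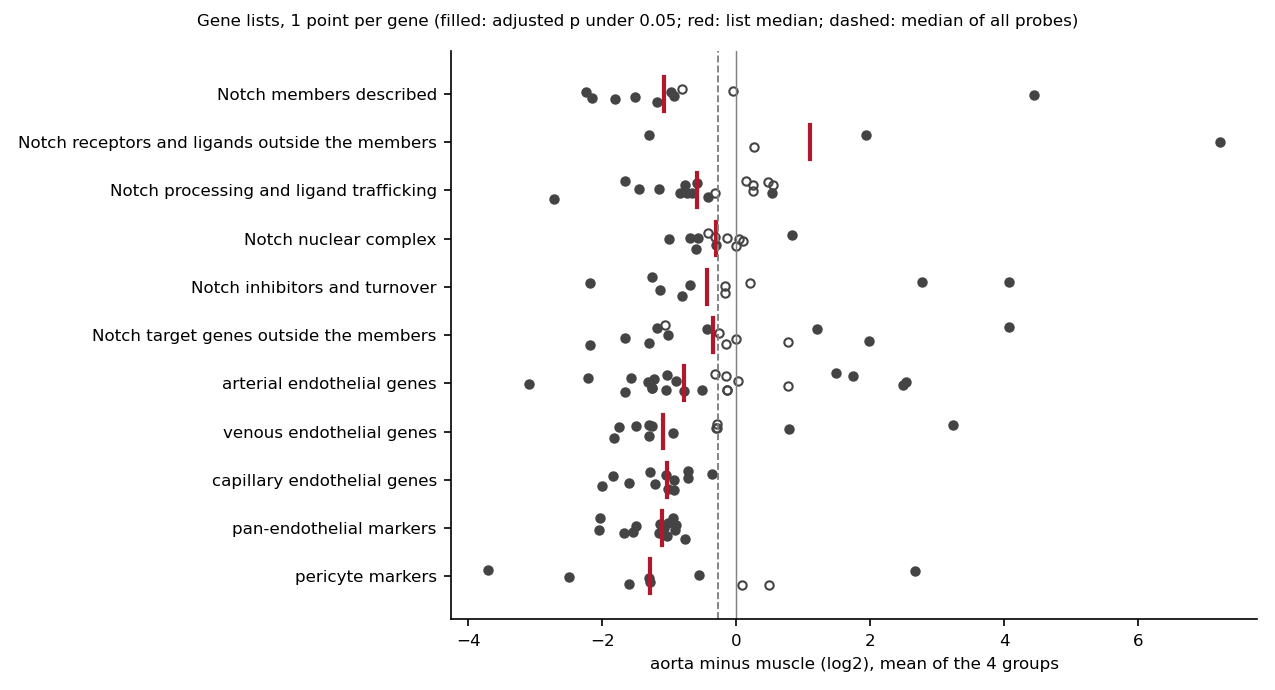
Difference between aorta and muscle (log2, mean of the 4 combinations of strain and diet) of every tested gene of each list, 1 point per gene, filled where the adjusted p was under 0.05. Red bars are list medians and the dashed line is the median of all tested probes, -0.27. Every pan-endothelial and capillary gene lies below 0, while Hey2, Dtx1 and Gkn3 lie above 2, and the muscle level behind Dner at the far right is mostly not above background.

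Diet was compared within each experiment, as HFD minus chow. None of the 10 genes was called by limma in aorta or in muscle, in WT, in KO or in the mean of both strains. At an unadjusted p under 0.05 there was 1 gene in aorta WT (Heyl), 1 in aorta KO (Heyl), 3 in muscle WT (Dll1, Hey2 and Notch4) and 1 in muscle KO (Dll1). Hey2 in muscle passed the filter through WT chow alone, and its WT HFD values were 2, of which 1 was below background. The methods' test of the 3 ratios gave 2 genes in aorta WT (Hey2 and Heyl), 2 in muscle WT (Notch1 and Notch4) and 0 in the KO groups before adjustment, and 0 after it. No share of all probes is given here for that test, so its counts before adjustment have no background beside them. Of all tested probes, 5.77%, 11.3%, 12.1% and 8.5% passed limma before adjustment in these comparisons. After adjustment, 0% of all tested probes were called in aorta WT, aorta KO and muscle WT, 0.00389% in muscle KO, 0.0309% in aorta and 0.288% in muscle for the mean of the strains.

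Heyl was the gene with the largest diet difference in aorta, and it differed between tissues. On chow its brighter probe read 0.73, 0.80 and -0.91 in experiments 1, 2 and 3 for aorta WT, and 0.39, 0.93 and 1.47 for aorta KO. On HFD the values were 2.60, 3.32 and 2.08 for WT and 2.40, 2.88 and 2.08 for KO. The 6 aortic HFD arrays were all above the 6 chow arrays.

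In muscle, Heyl read 3.07, 2.90 and 2.79 for WT chow, 2.88, 2.44 and 2.66 for KO chow, 3.18, 1.66 and 1.69 for WT HFD and 3.01, 1.85 and 1.74 for KO HFD. There the 4 HFD arrays of experiments 2 and 3 were below every chow array, and the 2 of experiment 1 were not. The mean difference in aorta was 2.46 for WT (SE 0.38, adjusted p = 0.220) and 1.53 for KO (SE 0.38, adjusted p = 0.325), and in both strains together 1.99 (SE 0.27, adjusted p = 0.0796), positive in 6 of 6 pairs. In muscle it was -0.75 for WT and -0.46 for KO, and -0.60 in both together (SE 0.24, adjusted p = 0.287).

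The test of the difference between the tissues called Heyl alone among the 10 genes: the diet response of aorta minus that of muscle was 2.60 (SE 0.39, 95% interval 1.74 to 3.45, adjusted p = 0.0392), where 0.0658% of all tested probes were called. The second Heyl probe gave 3.21 (SE 0.53, adjusted p = 0.0615), not called, with a positive difference in 6 of 6 aortic pairs and a negative one in 6 of 6 muscle pairs. With any 1 experiment left out, no probe at all was called in this comparison, so that the call on Heyl could not be held up there: the difference was 2.98 without experiment 1 (adjusted p = 0.188), 2.32 without experiment 2 (adjusted p = 0.480) and 2.49 without experiment 3 (adjusted p = 0.111). Without the replicate block its adjusted p was 0.142, and again 0 of 27344 probes were called.

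**Figure D4:**
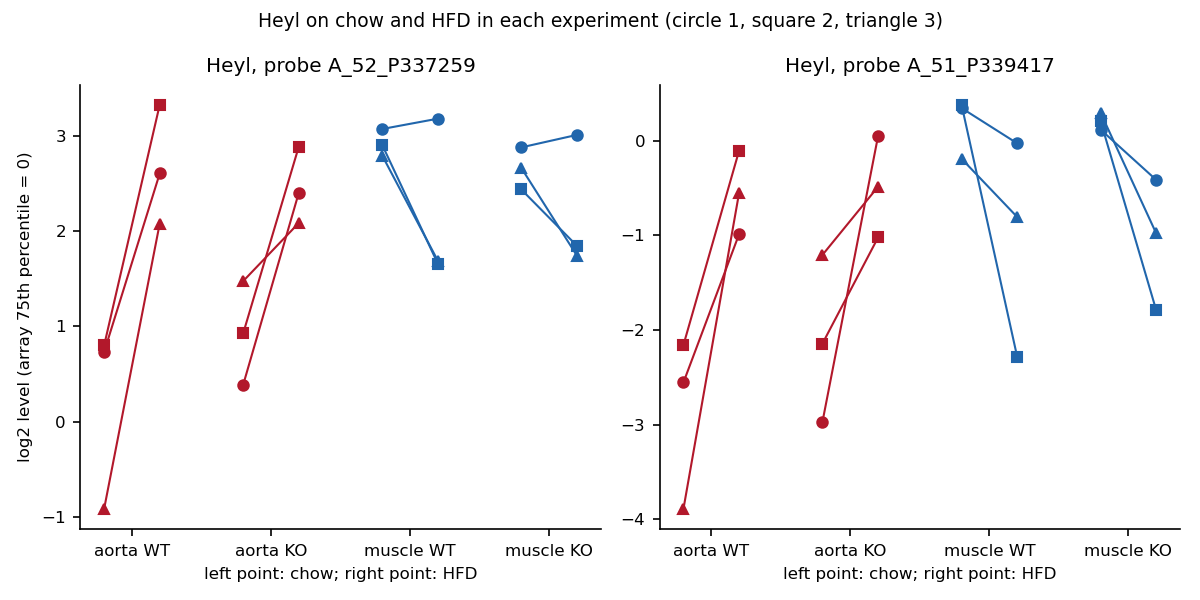
Log2 level of both Heyl probes on chow and HFD, relative to the 75th percentile of the array, with lines that join the arrays of 1 experiment. In aorta all 6 lines rise on each probe, and in muscle 4 of 6 fall on the brighter probe and 6 of 6 on the other.

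With the diet, the order of tissues at Heyl also changed. On chow, aorta was at -2.71 against muscle for WT (adjusted p = 0.00108) and at -1.73 for KO (adjusted p = 0.042). On HFD the values were 0.49 and 0.26, with adjusted p of 0.561 and 0.763, so that no HFD difference was called.

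No pericyte gene was called for the diet, beside 0.0309% of all tested probes in aorta and 0.288% in muscle. The list was not of 1 sign: 6 of 9 genes were above 0 in aorta and 3 of 9 in muscle. The 9 pericyte genes, Notch3 among them, summed to a median of 65.1 on the aortic chow arrays and 86.1 on the aortic HFD arrays (highest 116), and in muscle to a median of 132 on chow and 113 on HFD, with overlap between the diets in both tissues. All 9 were well above background on every array. Rgs5, a defining pericyte gene, gave -1.24 in aorta and -0.94 in muscle. Of all genes on the arrays, Cspg4, a pericyte proteoglycan (NG2) of that list, had the pattern most like that of Heyl over the 24 arrays (r = 0.84, on another of its probes than the list uses). Its diet differences on the probe used for the list were 0.62 in aorta and -0.71 in muscle (adjusted p = 0.258 and 0.205). Over the arrays of a tissue, Heyl had an r with the pericyte markers of 0.44 in aorta and 0.74 in muscle. The part of pericytes in the Heyl values was not tested. Adipocyte markers in aorta summed to between 124 and 400 on chow and between 15.4 and 39.1 on HFD, without overlap and with 2 of 9 tested genes called lower, and fibroblast markers to between 303 and 526 and between 360 and 691. The pan-endothelial mean in aorta differed between HFD and chow by -0.52 ± 0.98 for WT and -0.96 ± 0.73 for KO (SD, n = 3), and the part of these cells was not tested. Centred on them, the Heyl difference in aorta was 2.74 (adjusted p = 0.0111) and the difference between tissues 3.27 (adjusted p = 0.0501). That centring moved the median of all tested probes in aorta from 0.01 to 0.75, and 570 probes were then called, 39 of them lower, in place of 8.

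**Figure D5:**
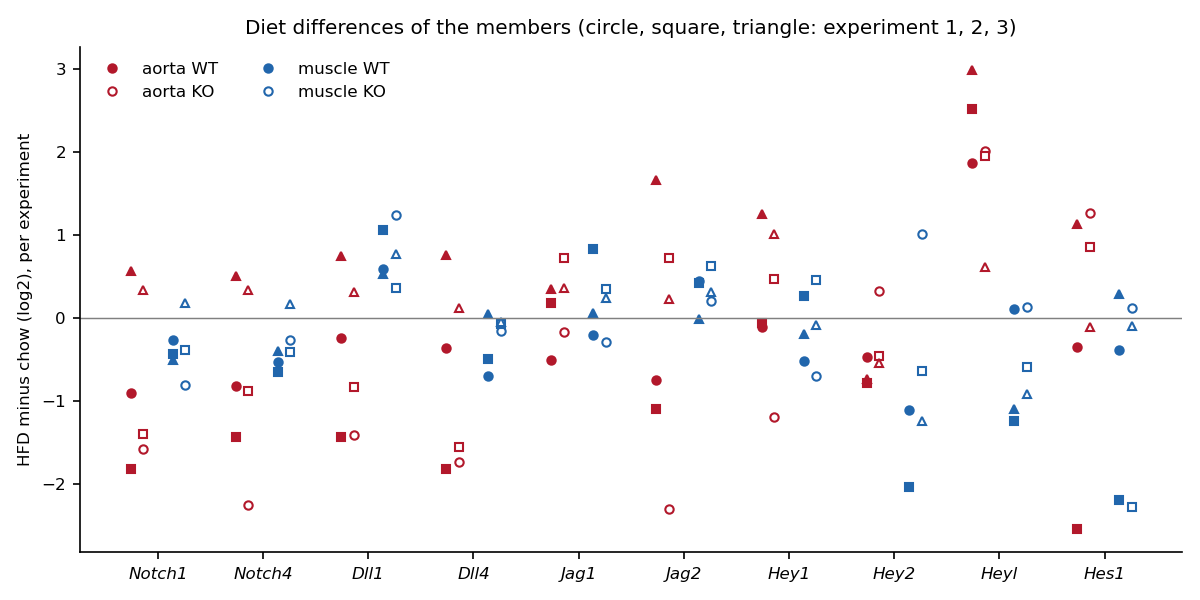
HFD minus chow (log2) of each gene in each experiment, by tissue (colour), strain (filled WT, open KO) and experiment (symbol). The 6 aortic Heyl values lie between 0.61 and 2.99, and Notch1, Notch4, Dll1 and Dll4 in aorta are negative in experiments 1 and 2 and positive in experiment 3.

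The receptors and Delta-like ligands differed in sign between experiments in aorta. Notch1 gave -0.91, -1.82 and 0.57 in experiments 1, 2 and 3 for WT and -1.58, -1.40 and 0.33 for KO. Notch4 gave -0.82, -1.43 and 0.50 for WT and -2.25, -0.89 and 0.34 for KO. The pan-endothelial mean gave -0.96, -1.22 and 0.60 for WT and -1.64, -1.05 and -0.18 for KO on the same arrays. Over both strains the differences were -0.80 (SE 0.39) for Notch1, -0.76 (SE 0.40) for Notch4 and -0.77 (SE 0.40) for Dll4, and their adjusted p were 0.385, 0.412 and 0.412.

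In muscle, Dll1 had the highest diet difference of the 10 genes. It gave 0.58, 1.06 and 0.53 for WT and 1.24, 0.37 and 0.77 for KO, positive in 6 of 6 pairs, with a mean of 0.76 (SE 0.18, adjusted p = 0.135). On the same arrays the pan-endothelial mean differed by at most 0.13 between the diets of a pair, and all 9 fibroblast markers were above 0 (median 1.15, 0 called by limma, 6 at an unadjusted p under 0.05), with a summed level of 23.3 to 138 on chow and 35.9 to 224 on HFD. Over the 12 muscle arrays, which share slides and pools, Dll1 had an r of -0.86 with the pericyte markers, and the part of these cells was not tested. In aorta the Dll1 mean was -0.48 (SE 0.35), and the difference between the tissues was -1.23 (SE 0.38, adjusted p = 0.299). Hey2 gave -0.93 in muscle (SE 0.37, adjusted p = 0.302), from values near background, and -0.45 in aorta (SE 0.20, adjusted p = 0.348). None of these was called.

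Outside the 10, no gene of the 5 further Notch lists was called in any diet or strain comparison. At an unadjusted p under 0.05 in aorta there were 2 of 4 receptors and ligands (Notch2 at 0.86 and Dner at 2.64), 4 of 16 processing genes, 1 of 12 of the nuclear complex, 2 of 10 inhibitors and 3 of 15 targets, with Nrarp at -1.23 and Efnb2 at -1.13 among them, beside 15.1% of all tested probes. Arterial genes in aorta had a median diet difference of -0.42, with 17 of 23 below 0, beside -0.67 for the pan-endothelial list and 0.01 for all tested probes.

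Between strains, none of the 10 genes was called in any of the 5 comparisons of KO with WT. The background was 0.0116% of tested probes for aorta chow, 0.00387% for aorta HFD, 0% for muscle chow and for muscle HFD, and 0.139% over all arrays. Before adjustment, limma passed 0 of 10 genes at 0.05 in each of the 4 combinations of tissue and diet, and 1 over all arrays. That gene, Notch4, was at 0.48 (SE 0.22, adjusted p = 1.0). It was higher in the array labelled KO in 9 of 12 pairs. Over all arrays, the 95% interval of the difference between strains was -0.36 to 0.36 for Jag1, -0.40 to 0.49 for Notch1 and -0.67 to 0.34 for Hey2. The fit over all arrays had no block for experiment or pool, so that its SEs and intervals treat all arrays as independent. They do not measure the spread between animals. Hes1 was at 0.48 (-0.35 to 1.31), Jag2 at 0.40 (-0.23 to 1.04) and Hey1 at 0.33 (-0.05 to 0.71), with the array labelled KO higher in 9, 9 and 10 of 12 pairs. The diet response of KO minus that of WT was called for 0 of 10 genes in aorta and 0 of 10 in muscle, with 0 at an unadjusted p under 0.05 in both and a background of 0% in each. The widest were Hes1 in aorta, at 1.26 (SE 0.94), and Hey2 in muscle, at 1.29 (SE 0.75), and Heyl in aorta was at -0.94 (SE 0.54).

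Genes with a like pattern over the arrays were named by the highest Pearson r. For Notch4 these were Snrk and Lnx1 (both 0.98), for Dll4 Nxpe4 and Afap1l1 (both 0.98), for Jag2 Adcy4 (0.98) and Tmem44 (0.97), and for Notch1 Limch1 (0.96). Hey1 had Shisa5 and Septin9 (both 0.95), and Dll1 had Gbp4 (0.93) and Ets1 (0.91). Hey2, over 23 arrays, had Adh7 (0.97) and Frzb (0.96), with 0.75 and 0.70 within aorta. Heyl had Cspg4 (0.84) and Chrna1 (0.82), Jag1 had 2310079G19Rik (0.84) and Tirap (0.83), and Hes1 had Rbak (0.77) and Gucy1b1 (0.76). All arrays of a tissue share its cell mixture, so that tissue alone gives a part of these values.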

How the data were processed

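RNA of sorted CD105+/CD45- cells was read on 24 single-colour Agilent mouse arrays. Processed intensities were made by the authors' Feature Extraction software (9.1 in the submitters' processing notes, 10.5.1.1 per the file headers), with background subtraction and no scaling between arrays. The deposited log2 table differs from the log2 of these intensities by 1 constant per array. The 75th percentile of the intensity was 2390 to 5938, between 59.55% and 75.7% of 43379 non-control spots were well above background, and the number of arrays limits the precision.

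Here the log2 of each intensity over its array's 75th percentile was taken, 1903 outlier values were left out, and spots were averaged into 41174 probes. Of these, 27198 matched 18539 symbols by accession (GRCm38.p6 table). A probe was well above background where at least 0.5 of its spots were. Probes well above it on every array of 1 group and missing on at most 1 array were tested, and the brightest probe of a gene over the arrays of the fit was used. Diet was fitted in limma 3.58.1 (R 4.3.3) with a block for strain and experiment, strain and tissue with group means, and p-values were adjusted by Benjamini-Hochberg. Replicate numbers mark shared experiments: deviations from the group means correlated by 0.20 on average between HFD and chow, 0.32 between KO and WT and 0.21 between aorta and muscle at the same number. Tissue and slide cannot be told apart within an experiment, since each of 6 slides held 1 tissue of 1 experiment. Experiment 1 was scanned in a session of its own, so that leaving it out is also the value of the other session.

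The genes described and all gene lists were chosen with earlier results of these data known. From each list, at most the 4 called genes with the largest tissue difference were named, with any Notch gene called for diet or strain and, per gene, the 2 most alike over the arrays. One of the latter is not reported here. The alternatives tried were the deposited table, quantile normalization, a normexp correction of the background (offset 50), other filters on dim probes, each experiment left out, other blocks, the methods' one-sample test, and, after the data had been seen, centring on the pan-endothelial markers. The fits were tested on simulated data with independent noise of capped size and with shifts planted between the tissues only. No diet or strain effect and no correlation within an experiment was simulated, so that the simulation does not cover these.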

Additional observations from a re-analysis of the deposited data

Results flagged for a closer look

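The diet response of Heyl differed between the tissues by a test of the difference itself, 2.60 on the log2 scale for aorta minus muscle. All 6 aortic pairs were positive on both probes, and 4 of 6 muscle pairs were negative on the brighter probe and 6 of 6 on the other. With any 1 experiment left out, 0 of all tested probes were called by limma in this comparison, Heyl included, and in each experiment and strain the aortic value stayed above the muscle value. Adipocyte markers in aorta were lower on HFD on the same arrays, with 2 of 9 tested called. No pericyte or pan-endothelial marker was called for the diet, where 0.0309% of all tested probes were called in aorta and 0.288% in muscle. The pericyte sum had a median of 65.1 on chow and 86.1 on HFD in aorta, and of 132 and 113 in muscle. Its values overlapped between the diets. The pan-endothelial mean in aorta differed by -0.52 ± 0.98 for WT and -0.96 ± 0.73 for KO (SD, n = 3). The part of these cells was not tested.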

How the results depend on the processing

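Over the 4 combinations of strain and diet, 8 of 10 genes were called between tissues, and 7 to 9 under the other blocks, normalizations, background correction and filters. Leaving out 1 experiment gave 6 to 8, with 8535 to 9758 probes called in place of 12622. Only centring on the pan-endothelial markers gave 5, with Dll1 (0.29), Jag1 (1.22), Hey1 (0.0849) and Heyl (0.34) reversed and Hes1 at 0.46 in place of -0.81. With the slide as a random block the count was 7, since Dll1 was no longer called (adjusted p = 0.0775). Over all probes 7711 of 27344 were called with that block, in place of 12622. A filter that asked for signal on every array left Hey2 untested. The pool of animals as a replicate block gave 9 genes over the 4 combinations and 4 in place of 2 for KO chow. Of all 27344 probes, 15393 and 2720 were then called. The KO chow count was 1 with the deposited table, without a filter on dim probes, with the filter on every array and with centring on the pan-endothelial markers. The calls over all probes there were 1724 of 27387, 1403 of 41050, 1101 of 19637 and 1510 of 27344. Centring on the pan-endothelial markers gave 2 for WT chow and 3 for WT HFD, where 4794 and 14149 of 27344 probes were called. Leaving out 1 experiment gave 2 to 6 genes for WT chow, 1 to 5 for WT HFD, 1 for KO chow and 1 to 3 for KO HFD. The calls over all probes were then 1256 to 2698, 1209 to 3181, 300 to 1264 and 1348 to 2572.

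For the diet response of aorta minus muscle, the 1 call (Heyl) became 0 without the replicate block, without a filter on dim probes, with centring on the pan-endothelial markers and without any 1 experiment (0 to 0). No probe of any gene was called in any of these settings. The Heyl value was 3.27 with that centring, between 2.54 and 2.90 under the other settings with all arrays (adjusted p 0.0121 to 0.142) and between 2.32 and 2.98 with an experiment left out. In aorta, the mean of the strains had 1 call in place of 0, Heyl, with normexp (adjusted p = 0.0411), with the filter on every array (0.040) and with centring on the pan-endothelial markers. No other block changed a count of called genes by over 1.5 times. Hey2 between tissues was 3.45 with normexp and 4.08 with the deposited table, and signal limits it in muscle, where it was well above background on 7 of 12 arrays.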
